A study of Mus musculus with 12 samples.

Results

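The genes described here encode 4 families of liver enzymes that handle drugs, alcohols, lipids and steroids: carboxylesterases, aldehyde dehydrogenases, alcohol dehydrogenases and sulfotransferases. They were taken from the table of gene counts by symbol (Ces followed by a digit from 1 to 5 and at most 1 letter, or Aldh, Adh or Sult followed by a digit), which gave 64 of the 24411 genes listed: 18 Ces, 21 Aldh, 6 Adh and 19 Sult genes. RNA came from whole liver of 9 mice in 3 genotypes, 3 mice each. Control mice (cont.) carried the Atg7flox/flox alleles without Cre. Atg7-KO mice carried the same floxed alleles and the Alb-Cre transgene, in which the albumin promoter drives Cre, so that Atg7, which encodes an enzyme essential for autophagy, is deleted in hepatocytes. The paper calls this knockout hepatocyte-specific, and Atg7 in other liver cells was not measured apart here. Atg7-KO;p62T352A mice carried both and were homozygous for the T352A substitution in the endogenous p62 gene (Sqstm1), made by prime editing in embryonic stem cells. All mice shared the floxed Atg7 alleles and a C57BL/6 background, and were 3 months old. Liver of 3 mice with floxed alleles and T352A but no Cre is described by the labels and is not analysed here.

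Carboxylesterases cleave ester and amide bonds of drugs and of stored lipids, mostly in the endoplasmic reticulum of hepatocytes. Alcohol dehydrogenases oxidize ethanol and retinol to aldehydes, and aldehyde dehydrogenases carry aldehydes on to acids, in the same routes that turn retinol into retinoic acid and in the breakdown of several amino acids. Sulfotransferases move a sulfate group from the donor PAPS onto phenols, oestrogens, hydroxysteroids and bile acids, which makes them more soluble. Several of these genes are known to differ between male and female mouse liver, and some are known targets of NRF2, the transcription factor released from KEAP1 when phosphorylated p62 accumulates.

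Levels are given as normalized CPM, counts scaled to the library's total and between libraries by the TMM method, and a difference between genotypes as a log2 fold change ± its standard error with a Benjamini-Hochberg adjusted p (FDR) from edgeR's quasi-likelihood test over all 13922 genes that passed a filter on low counts. A gene was called where its FDR was below 0.05 and its fold change above 1.5. The filter passed 54 of the 64 members. The other 10 (Adh6a, Aldh1l2, Aldh3a1, Ces2b, Ces2f, Ces2h, Ces5a, Sult1c1, Sult4a1 and Sult6b1) had too few counts, and Ces2f had no count in any mouse. Library totals ranged from 9671080 to 23285132 counts. Atg7 was at 46.4, 44.2 and 55.4 CPM in cont. mice, 10.1, 9.57 and 12.0 in Atg7-KO mice and 29.7, 27.4 and 29.5 in Atg7-KO;p62T352A mice, lower in Atg7-KO than in cont. (-2.20 ± 0.17, FDR 2.5e-05) and higher in Atg7-KO;p62T352A than in Atg7-KO (1.45 ± 0.17, FDR 1.6e-04). Counts cover the whole gene, reads outside the deleted part and from other cells included, and the part of the higher Atg7 level in the results was not tested. The NRF2 target Nqo1 was at 6.36, 7.28 and 12.2 CPM in cont. mice, 175, 219 and 249 in Atg7-KO mice and 11.7, 13.2 and 18.4 in Atg7-KO;p62T352A mice.

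Markers of several cell types moved with the genotype. The summed level of 6 hepatocyte marker genes ranged from 67835 to 120230 CPM in cont. mice, from 36025 to 38546 in Atg7-KO mice and from 105470 to 120080 in Atg7-KO;p62T352A liver. The summed level of 6 macrophage markers ranged from 249 to 298, from 695 to 756 and from 168 to 311 CPM in the same order, and that of 6 cholangiocyte markers from 33.4 to 51.3, from 826 to 1023 and from 181 to 266 CPM. Single genes made up most of 2 of these sums. Alb held a mean of 62573 of 88682 CPM of the hepatocyte sum in cont. liver. Spp1 held 871 of 928 CPM of the cholangiocyte sum in Atg7-KO liver. In Atg7-KO against cont. liver 4 of the 6 hepatocyte markers were called lower, and 5 of 6 macrophage, 5 of 6 cholangiocyte and 4 of 6 stellate cell markers higher. The hepatocyte markers Hnf4a and Apob were not called. Of 6 leukocyte markers 4 were higher, and of 5 endothelial markers 2 were higher and 1 lower. Among all tested genes 21.6% were called higher and 22.1% lower. Cftr, a cholangiocyte marker, was at 0 in cont. mice 2 and 3. Fewer hepatocytes and less RNA per hepatocyte cannot be told apart in bulk liver, and the part of either in the results was not tested. The mice numbered 1 in every genotype had 7 to 28 counts of the X-inactivation RNA Xist and the other 6 had 8578 to 18335, a split that the labels do not mention since they give no sex. Y-linked Ddx3y was at 68.2, 23.6 and 6.04 CPM in cont. mice, 46.5, 2.34 and 0.384 in Atg7-KO mice and 70.5, 8.20 and 2.94 in Atg7-KO;p62T352A mice, and cont. mouse 2 had the most among the 6 mice with high Xist counts.

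Between Atg7-KO and cont. liver, 36 of the 54 tested members were called, 10 higher and 26 lower. Among all tested genes 43.7% were called, 21.6% higher and 22.1% lower, so the members' share of lower calls (48.1%) was above that of all genes and their share of higher calls (18.5%) was close to it. Their median log2 fold change was -0.93, against -0.03 over all tested genes, and was the same with Sult2b1, which had no count in cont. liver, at its lower bound. Between Atg7-KO;p62T352A and Atg7-KO liver 30 members were called, 19 higher and 11 lower, where 51.0% of all genes were called, 24.7% higher and 26.2% lower. The members' median was 0.58, against 0.00 over all genes. Between Atg7-KO;p62T352A and cont. liver 5 members were called, 1 higher and 4 lower, where 11.6% of all genes were called, 6.25% higher and 5.34% lower. The first pair of comparisons shares the Atg7-KO mice, so an opposite sign in the 2 is in part built in. In total 17 members were lower in Atg7-KO than in cont. liver and higher in Atg7-KO;p62T352A than in Atg7-KO liver with no call between the outer genotypes (31.5% of the tested members, against 15.8% of all tested genes), and 7 had the opposite order (13.0%, against 15.5%).

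**Figure D1:**
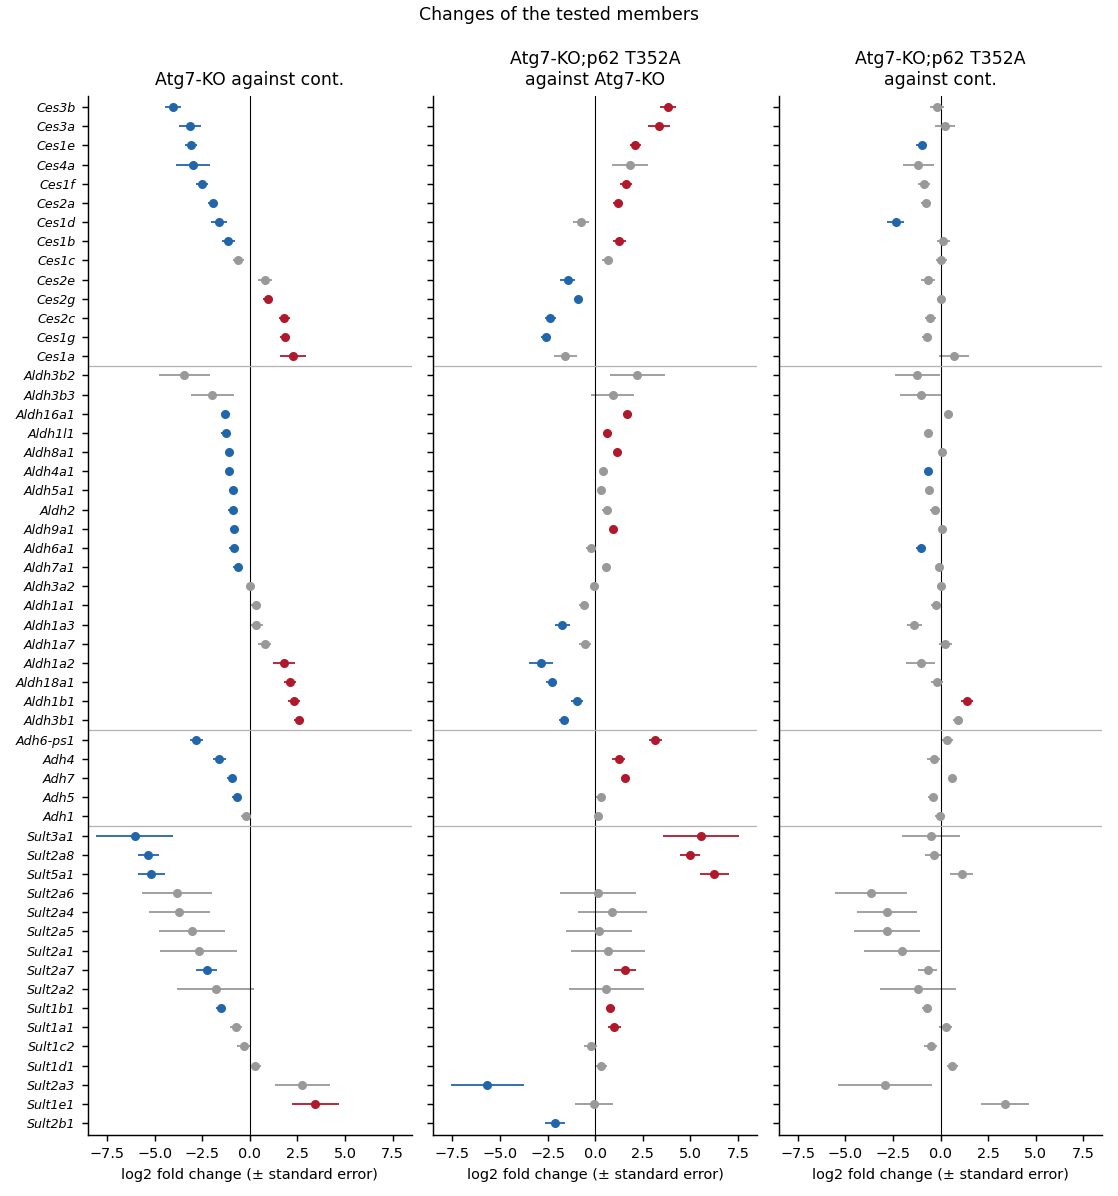
Log2 fold change with standard error of the tested members in the 3 comparisons (54 between the Cre genotypes, 53 where cont. enters), by family, red where called higher, blue where called lower and grey where not called. Blue points prevail in the first panel (26 lower, 9 higher drawn), red ones in the second (19 higher, 11 lower), and 5 points are coloured in the third; Sult2b1 is left out where cont. enters, since it had no count there.

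Summed over each family, the level in Atg7-KO liver was lowest in the carboxylesterases and sulfotransferases relative to cont. liver. Carboxylesterase genes together gave 6387 ± 1936 CPM in cont. liver, 3296 ± 235 in Atg7-KO liver and 5664 ± 846 in Atg7-KO;p62T352A liver (SD, n = 3 each). Sulfotransferase genes gave 1781 ± 350.1, 578 ± 60.1 and 1689 ± 171 CPM. In both families every Atg7-KO mouse lay below every mouse of the other genotypes. Aldehyde dehydrogenase genes gave 6683 ± 1146, 4759 ± 127 and 5430.1 ± 876 CPM, and alcohol dehydrogenase genes 3245 ± 719.7, 2616 ± 36.8 and 3076 ± 777. These 2 families overlapped between Atg7-KO and Atg7-KO;p62T352A mice. The log2 ratio of the Ces sums between Atg7-KO and cont. was -0.95, and -0.68 without cont. mouse 1, the highest of all. The sums were not tested.

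**Figure D2:**
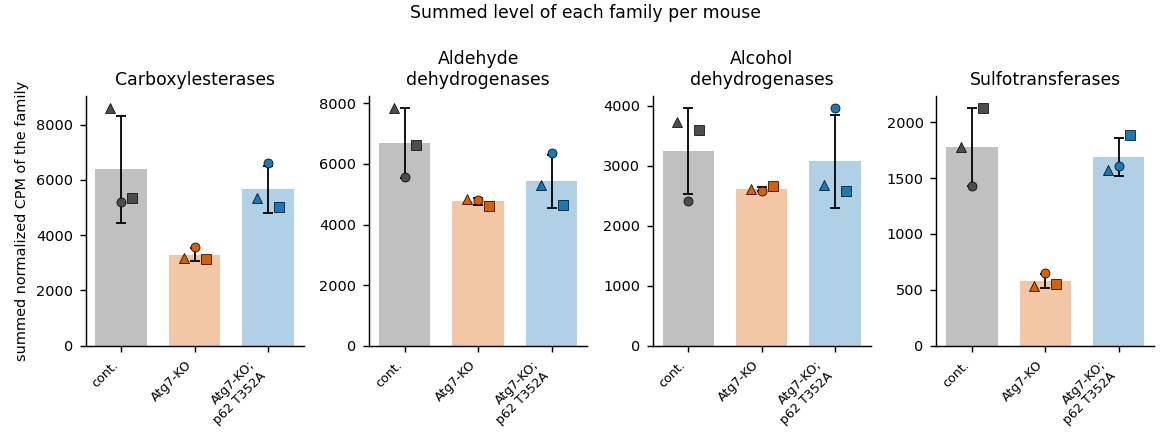
Summed normalized CPM of each family by genotype: bars are means of 3 mice, error bars their SD and points the mice (triangle, circle and square for mice 1, 2 and 3). The Atg7-KO mice lie lowest in the Ces and Sult panels, with means of 3296 and 578 CPM.

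The median log2 fold change of the 14 carboxylesterase genes tested was -1.38 between Atg7-KO and cont. liver. Without cont. mouse 3, where the filter passed 56 members of the 4 families, the median was -0.75. Of the 14, 8 were lower and 4 higher in Atg7-KO than in cont. liver. These were 57.1% and 28.6%, against 22.1% lower and 21.6% higher among all tested genes. They sit in 2 clusters on chromosome 8 (GRCm38, GENCODE annotation). The Ces1 genes lie between 93020214 and 93337308, and the Ces2, Ces3 and Ces4 genes between 104734003 and 105150109. Both clusters held members that rose beside members that fell.

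Ces3b and Ces3a, neighbouring genes for esterases of the hepatocyte endoplasmic reticulum, fell furthest among the abundant carboxylesterases. Ces3b was at 509, 274 and 273 CPM in cont. mice, 29.0, 24.8 and 11.0 in Atg7-KO mice and 288, 393 and 240.1 in Atg7-KO;p62T352A mice. It fell by 4.03 ± 0.43 on the log2 scale in Atg7-KO (FDR 1.3e-04) and was higher in Atg7-KO;p62T352A than in Atg7-KO by 3.83 ± 0.43 (FDR 1.5e-04), with no overlap of the Atg7-KO mice with either group. Ces3a was at 2701, 1376 and 839.6 CPM in cont. mice, 321, 158 and 83.1 in Atg7-KO mice and 2554, 1755 and 1378 in Atg7-KO;p62T352A mice. Its log2 fold changes were -3.13 ± 0.57 (FDR 0.00206) and 3.34 ± 0.58 (FDR 0.00123), again without overlap. The pair share 15.1% of the 75-base stretches of Ces3a and 15.4% of those of Ces3b, so part of their reads cannot be assigned to 1 gene with certainty.

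Ces2c, in the same cluster as Ces3b and encoding an acylglycerol hydrolase, moved the other way. Its levels were 90.5, 43.8 and 49.8 CPM in cont. mice, 211, 217 and 221 in Atg7-KO mice and 53.3, 38.7 and 35.1 in Atg7-KO;p62T352A mice. The Atg7-KO mice lay above all others, at a log2 fold change of 1.82 ± 0.29 against cont. (FDR 9.5e-04) and -2.35 ± 0.29 in Atg7-KO;p62T352A against Atg7-KO (FDR 2.4e-04). In all 22.1% of its 75-base stretches occur in other genes, and 21.2% in the pseudogene Ces2d-ps. The 100 bases before the annotated start of these 2 genes are printed to show the promoters of a member that rose and of one that fell within 1 cluster (RefSeq, GRCm38.p6, plus strand, chr8:104846968-104847067 for Ces2c and chr8:105083655-105083754 for Ces3b). Capitals mark the letters TATAAA, searched on both strands, which occur in 5.56% of 32851 RefSeq promoters in the same 100-base window, and stand 30 bases before the start in Ces3b. The same windows of Ces1e, lower in Atg7-KO, and Aldh1b1, higher there, were searched as well and held no match. Whether the letters go with the direction of change was not tested.
Ces2c: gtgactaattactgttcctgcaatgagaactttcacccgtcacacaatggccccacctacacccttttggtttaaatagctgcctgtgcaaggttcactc
Ces3b: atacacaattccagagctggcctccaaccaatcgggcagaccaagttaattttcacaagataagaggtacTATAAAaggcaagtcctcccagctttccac

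Ces1g, which encodes an esterase of triacylglycerol and cholesteryl ester breakdown, was the abundant Ces1 gene that rose. It was at 231, 117 and 138 CPM in cont. mice, 577, 596 and 593 in Atg7-KO mice and 81.9, 110.3 and 104 in Atg7-KO;p62T352A mice. Every Atg7-KO mouse lay above every other mouse (log2 fold change 1.86 ± 0.27, FDR 5.5e-04; then -2.58 ± 0.27, FDR 1.2e-04). Per length of its longest transcript, Ces1g made up a mean of 2.07% of the summed carboxylesterase level in cont. liver, 15.2% in Atg7-KO liver and 1.45% in Atg7-KO;p62T352A liver. The weakly expressed Ces1a (at most 2.09 CPM) was also higher in Atg7-KO (2.26 ± 0.68), a call lost without cont. mouse 2 or Atg7-KO mouse 3 (highest FDR 0.0898).

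Of the other Ces1 genes 4 were lower in Atg7-KO liver. Ces1e, whose product egasyn holds beta-glucuronidase in the endoplasmic reticulum, was at 201, 110.2 and 116 CPM in cont. mice, 15.6, 18.6 and 15.4 in Atg7-KO mice and 85.5, 78.8 and 49.0 in Atg7-KO;p62T352A mice. It fell by 3.11 ± 0.31 on the log2 scale in Atg7-KO (FDR 8.2e-05). In Atg7-KO;p62T352A it stood above Atg7-KO (2.10 ± 0.29) and still below cont. (-1.00 ± 0.28, FDR 0.0489). The last call was lost in 7 of the 9 fits that left out 1 mouse (highest FDR 0.156). These include every fit without an Atg7-KO mouse, a genotype outside that comparison whose mice enter the pooled spread. Ces1f was at 579, 343 and 350.4 CPM in cont. mice, 75.7, 82.1 and 68.0 in Atg7-KO mice and 226, 317 and 153 in Atg7-KO;p62T352A mice, with changes of -2.50 ± 0.31 (FDR 2.7e-04) and 1.62 ± 0.30 (FDR 0.00182). The 3 genotypes did not overlap for Ces1e or Ces1f.

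Ces1d, the triacylglycerol hydrolase that mobilizes stored lipid for secretion, had a different order. Its levels were 842, 458 and 396 CPM in cont. mice, 170.4, 199 and 175 in Atg7-KO mice and 61.0, 185 and 82.2 in Atg7-KO;p62T352A mice. It fell by 1.64 ± 0.42 on the log2 scale in Atg7-KO (FDR 0.0108), was not called between Atg7-KO;p62T352A and Atg7-KO (-0.73 ± 0.41, FDR 0.16), and was lower in Atg7-KO;p62T352A than in cont. (-2.37 ± 0.43, FDR 0.0114). The last call was lost only without Atg7-KO;p62T352A mouse 3 (FDR 0.0565) among the 9 fits that left out 1 mouse. Ces1b was at 67.5, 144 and 201 CPM in cont. mice, 67.6, 63.5 and 58.7 in Atg7-KO mice and 128, 148 and 179 in Atg7-KO;p62T352A mice. Atg7-KO mouse 1 and cont. mouse 1 were level, so those groups overlapped at a called change of -1.12 ± 0.34 (FDR 0.0217), lost without cont. mouse 3 or any Atg7-KO mouse (highest FDR 0.0750). Against Atg7-KO, Ces1b was higher in Atg7-KO;p62T352A without overlap (1.26 ± 0.34, FDR 0.011).

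Ces1c, the carboxylesterase secreted into mouse plasma, was the most abundant family member per length in each genotype (means of 41.3%, 51.6% and 45.4% of the summed level). It was not called in any comparison, with 2613, 1899 and 2572 CPM in cont. mice, 1361, 1751 and 1512 in Atg7-KO mice and 1523, 3192 and 2524 in Atg7-KO;p62T352A mice and a log2 difference of -0.62 ± 0.29 (FDR 0.104) between Atg7-KO and cont. liver.

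The remaining members of the second cluster moved in both directions. Ces2a was at 509, 299 and 294 CPM in cont. mice, 88.5, 103 and 92.6 in Atg7-KO mice and 214, 257 and 177 in Atg7-KO;p62T352A mice, with changes of -1.96 ± 0.26 (FDR 3.5e-04) and 1.19 ± 0.25 (FDR 0.00347), and its Atg7-KO mice were the lowest. Ces2g was at 50.5, 30.5 and 42.6 CPM in cont. mice, 67.2, 84.5 and 85.6 in Atg7-KO mice and 36.1, 50.6 and 39.2 in Atg7-KO;p62T352A mice, with changes of 0.94 ± 0.22 (FDR 0.00776) and -0.92 ± 0.22 (FDR 0.0072), and its Atg7-KO mice were the highest. Ces2e was at 222, 86.3 and 82.5 CPM in cont. mice, 196, 268 and 223 in Atg7-KO mice and 90.5, 96.7 and 63.5 in Atg7-KO;p62T352A mice. Its Atg7-KO mice overlapped cont. mouse 1 and the gene was not called there (FDR 0.0981), whereas it was lower in Atg7-KO;p62T352A than in Atg7-KO (-1.45 ± 0.38, FDR 0.00941). Ces4a, at most 2.64 CPM in any mouse, was lower in Atg7-KO (-2.99 ± 0.88, FDR 0.0203), a call lost without cont. mouse 1, Atg7-KO mouse 1 or Atg7-KO mouse 3 (highest FDR 0.0588).

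**Figure D3:**
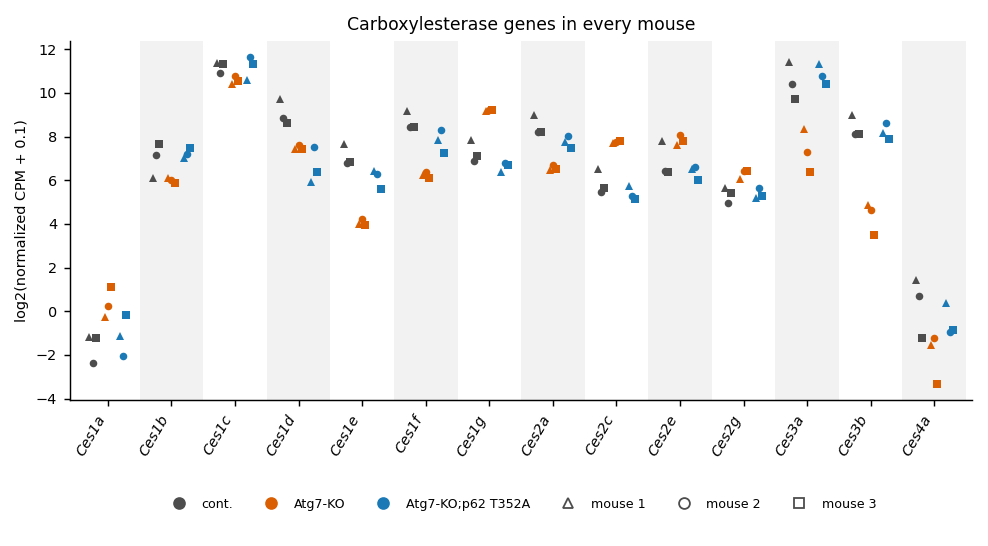
Level of each tested carboxylesterase gene as log2(normalized CPM + 0.1), 1 point per mouse, coloured by genotype, with triangles, circles and squares for mice 1, 2 and 3. Orange Atg7-KO points lie below the others for Ces3a and Ces3b and above them for Ces1g and Ces2c.

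Other genes for ester hydrolases outside these families, a list of 13, were tested in full. In Atg7-KO against cont. liver 2 passed upward and 5 downward (53.8% called, against 43.7% of all tested genes), with a median of 0.46. The largest called rise was that of Esd, which encodes S-formylglutathione hydrolase, at 375, 197 and 222 CPM in cont. mice, 697, 693 and 707 in Atg7-KO mice and 219.5, 265 and 216 in Atg7-KO;p62T352A mice (1.40 ± 0.25, FDR 0.00188). The largest called fall was that of Mgll, monoacylglycerol lipase, at 152, 372 and 250.2 CPM in cont. mice, 54.9, 58.3 and 58.7 in Atg7-KO mice and 412, 514 and 360.0 in Atg7-KO;p62T352A mice (-2.17 ± 0.31, FDR 5.2e-04). For both genes the Atg7-KO mice stood apart from all other mice, while cont. and Atg7-KO;p62T352A mice overlapped.

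Of the 5 tested alcohol dehydrogenase genes 4 were lower in Atg7-KO than in cont. liver (80.0%, against 22.1% of all tested genes), with a median of -0.96. They form 1 cluster on chromosome 3 (138217760 to 138455499). Adh1, the class I enzyme that oxidizes most ethanol in liver, was the member without a call. It stood at 2983, 2006 and 3189 CPM in cont. mice, 2325, 2329 and 2408 in Atg7-KO mice and 2218, 3487 and 2237 in Atg7-KO;p62T352A mice, a log2 difference of -0.21 ± 0.26 (FDR 0.527), and the mice overlapped in all comparisons. Per length Adh1 made up 90.0% of the summed family level in cont. liver, 94.6% in Atg7-KO liver and 91.2% in Atg7-KO;p62T352A liver.

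Adh4, a class II enzyme of alcohol and retinol oxidation, was at 187, 90.2 and 71.2 CPM in cont. mice, 46.7, 34.6 and 34.3 in Atg7-KO mice and 98.6, 104 and 70.0 in Atg7-KO;p62T352A mice. It fell by 1.59 ± 0.35 on the log2 scale in Atg7-KO (FDR 0.00503) and was higher in Atg7-KO;p62T352A than in Atg7-KO by 1.24 ± 0.34 (FDR 0.0132), the second call being lost without Atg7-KO mouse 2 or 3 (highest FDR 0.0533). Adh7, the class IV enzyme known for retinol oxidation in the stomach, was at 9.11, 12.5 and 11.7 CPM in cont. mice, 4.26, 5.42 and 7.34 in Atg7-KO mice and 18.8, 15.8 and 15.8 in Atg7-KO;p62T352A mice, with changes of -0.96 ± 0.23 (FDR 0.00824) and 1.56 ± 0.23 (FDR 5.5e-04). In both genes the Atg7-KO mice were lowest. The pseudogene Adh6-ps1 showed the largest change of the family, with 66.6, 45.3 and 38.1 CPM in cont. mice, 7.88, 6.94 and 6.57 in Atg7-KO mice and 96.9, 47.4 and 45.4 in Atg7-KO;p62T352A mice and changes of -2.81 ± 0.34 (FDR 2.3e-04) and 3.15 ± 0.34 (FDR 1.3e-04). Adh5, the glutathione-dependent formaldehyde dehydrogenase, was at 478, 263 and 284 CPM in cont. mice, 224, 208 and 200.1 in Atg7-KO mice and 245, 317 and 212 in Atg7-KO;p62T352A mice. Its call (-0.70 ± 0.26, FDR 0.0493) was lost in 6 of the 9 fits that left out 1 mouse, and without cont. mouse 1 the difference was -0.38.

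The 19 tested aldehyde dehydrogenase genes had a median log2 fold change of -0.83 between Atg7-KO and cont. liver. Without cont. mouse 1, where the filter passed 56 members of the 4 families, the median was -0.45. Of the 19, 4 were higher and 9 lower in Atg7-KO than in cont. liver. Their shares were 21.1% higher and 47.4% lower, against 21.6% and 22.1% of all tested genes. Those that rose were Aldh3b1, Aldh1b1, Aldh18a1 and Aldh1a2. Each of the 4 was lower in Atg7-KO;p62T352A than in Atg7-KO liver.

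Aldh1b1, a mitochondrial enzyme with activity on acetaldehyde, stood at 53.9, 28.7 and 20.002 CPM in cont. mice, 162, 172 and 181 in Atg7-KO mice and 88.8, 93.2 and 86.3 in Atg7-KO;p62T352A mice. The 3 genotypes did not overlap: it was higher in Atg7-KO by 2.33 ± 0.32 (FDR 4.4e-04), lower in Atg7-KO;p62T352A than in Atg7-KO (-0.94 ± 0.30, FDR 0.0255), and higher there than in cont. by 1.38 ± 0.31 (FDR 0.0231). The call between the Cre genotypes was lost when any of their 6 mice was left out (highest FDR 0.0746), and that against cont. without cont. mouse 2 or any Atg7-KO;p62T352A mouse (highest FDR 0.103). Aldh3b1, an enzyme of medium- and long-chain aldehydes, was at 2.29, 1.80 and 3.19 CPM in cont. mice, 13.5, 13.9 and 15.4 in Atg7-KO mice and 3.78, 5.88 and 4.11 in Atg7-KO;p62T352A mice. Its changes were 2.56 ± 0.26 (FDR 1.1e-04) and -1.63 ± 0.25 (FDR 6.3e-04), without overlap.

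Aldh18a1 and Aldh1a2 stayed below 10 CPM in every mouse. Aldh18a1, which makes pyrroline-5-carboxylate for proline synthesis, was between 1.15 and 2.20 CPM in cont. mice, 5.67 and 8.22 in Atg7-KO mice and 1.19 and 1.76 in Atg7-KO;p62T352A mice (changes of 2.11 ± 0.31 and -2.29 ± 0.31, FDR 6.3e-04 and 3.3e-04). Aldh1a2, a retinal dehydrogenase that makes retinoic acid, was between 1.45 and 1.85 CPM in Atg7-KO mice and at most 1.10 in the others. Its call against cont. (1.80 ± 0.60, FDR 0.034) was lost without cont. mouse 1 or 2 or any Atg7-KO mouse (highest FDR 0.0972), while its fall to Atg7-KO;p62T352A (-2.85 ± 0.64, FDR 0.00493) was called in each such fit.

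The 9 that fell in Atg7-KO liver include enzymes of amino acid and one-carbon breakdown. Aldh1l1, the cytosolic formyltetrahydrofolate dehydrogenase, was at 1243, 1201 and 1780.3 CPM in cont. mice, 674, 546 and 544 in Atg7-KO mice and 847, 1114 and 751 in Atg7-KO;p62T352A mice and fell by 1.26 ± 0.24 on the log2 scale (FDR 0.00256). It was above Atg7-KO in all Atg7-KO;p62T352A mice, by 0.62 ± 0.24 (FDR 0.0495), a call lost in 6 of 9 fits without 1 mouse (highest FDR 0.154). Aldh8a1, an aminomuconic semialdehyde dehydrogenase of tryptophan breakdown, was at 402, 340.3 and 355 CPM in cont. mice, 159.5, 182 and 172 in Atg7-KO mice and 423, 340.2 and 388 in Atg7-KO;p62T352A mice. Its changes were -1.09 ± 0.17 (FDR 9.1e-04) and 1.17 ± 0.17 (FDR 5.3e-04), and no Atg7-KO mouse came near the rest.

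Aldh16a1, a member thought to lack enzyme activity in mammals, was at 52.6, 92.2 and 94.1 CPM in cont. mice, 35.6, 29.7 and 32.4 in Atg7-KO mice and 94.6, 118 and 102 in Atg7-KO;p62T352A mice. It changed by -1.29 ± 0.23 (FDR 0.00197) and 1.69 ± 0.24 (FDR 4.1e-04). Aldh9a1, which acts in carnitine synthesis, was at 315, 223 and 244 CPM in cont. mice, 135, 154 and 143 in Atg7-KO mice and 266, 318 and 249 in Atg7-KO;p62T352A mice and changed by -0.85 ± 0.19 (FDR 0.0057) and 0.95 ± 0.19 (FDR 0.00279). For both genes the Atg7-KO mice lay below all others.

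A further 5 members fell in Atg7-KO liver and were not called between Atg7-KO;p62T352A and Atg7-KO: Aldh2, Aldh4a1, Aldh5a1, Aldh6a1 and Aldh7a1. Between the latter genotypes Aldh2 differed by 0.60 ± 0.25 (FDR 0.0664), Aldh4a1 by 0.42 ± 0.18 (0.0669) and Aldh7a1 by 0.56 ± 0.23 (0.0595). Aldh5a1 differed by 0.29 ± 0.20 (0.258) and Aldh6a1 by -0.22 ± 0.26 (0.490). Of these genes only Aldh6a1 had overlapping mice there. Aldh2, Aldh5a1 and Aldh7a1 were not called between Atg7-KO;p62T352A and cont. Aldh2, the mitochondrial enzyme that clears acetaldehyde, was at 1925, 1339.7 and 1462 CPM in cont. mice, 884, 869 and 782 in Atg7-KO mice and 1066, 1709 and 1055 in Atg7-KO;p62T352A mice (change against cont. -0.90 ± 0.25, FDR 0.0153). Aldh4a1, of proline breakdown, was at 498, 356 and 419.6 CPM in cont. mice, 205, 211 and 192 in Atg7-KO mice and 264, 279 and 271 in Atg7-KO;p62T352A mice, lower than in cont. in Atg7-KO (-1.07 ± 0.18, FDR 0.00125) and in Atg7-KO;p62T352A liver (-0.65 ± 0.18, FDR 0.0426). Aldh6a1, of valine breakdown, was at 637, 376 and 319.6 CPM in cont. mice, 276, 256 and 218 in Atg7-KO mice and 225, 216 and 204 in Atg7-KO;p62T352A mice, with -0.83 ± 0.26 (FDR 0.025) and -1.05 ± 0.26 (FDR 0.0308) against cont. Of the same 2 genes, 28.7% and 14.7% of the 75-base stretches occur in other genes, chiefly Gm21969 and Bbof1. The calls of Aldh4a1 and Aldh6a1 against cont. in Atg7-KO;p62T352A liver were lost in 8 and 7 of the 9 fits without 1 mouse (highest FDR 0.130 and 0.110). For both genes these include every fit without an Atg7-KO mouse, a genotype outside that comparison. Aldh5a1, of GABA breakdown, was at 85.8, 50.1 and 63.1 CPM in cont. mice, 33.6, 37.7 and 34.9 in Atg7-KO mice and 43.7, 47.0 and 38.8 in Atg7-KO;p62T352A mice (-0.91 ± 0.21, FDR 0.00598). Aldh7a1, of lysine breakdown, was at 495, 320.0 and 336 CPM in cont. mice, 262, 243 and 232 in Atg7-KO mice and 358, 434 and 294 in Atg7-KO;p62T352A mice (-0.65 ± 0.23, FDR 0.0407). For all 5 the Atg7-KO mice lay below every cont. mouse. Calls against cont. were lost without Atg7-KO mouse 2 or 3 for Aldh2 (highest FDR 0.0643), and without cont. mouse 1 or any Atg7-KO mouse for Aldh6a1 (0.0985), the same 4 mice and Atg7-KO;p62T352A mouse 1 for Aldh7a1 (0.130).

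The other 6 tested aldehyde dehydrogenase genes had no call between Atg7-KO and cont. liver. Aldh1a1, the main retinal dehydrogenase of mouse liver, was at 1515, 755 and 992 CPM in cont. mice, 1359.9, 1378 and 1393 in Atg7-KO mice and 976, 1082 and 711 in Atg7-KO;p62T352A mice (0.34 ± 0.27, FDR 0.334), and its relative Aldh1a7 at 268, 122 and 118 CPM in cont. mice, 299.6, 289.9 and 279 in Atg7-KO mice and 225, 239.8 and 136 in Atg7-KO;p62T352A mice (0.77 ± 0.34, FDR 0.086). Per length Aldh1a1 made up 22.5% of the summed family level in cont. liver, 36.5% in Atg7-KO liver and 23.1% in Atg7-KO;p62T352A liver. Aldh3a2, the fatty aldehyde dehydrogenase, held between 332 and 414 CPM in all 9 mice. Aldh1a3, under 1 CPM throughout, was lower in Atg7-KO;p62T352A than in Atg7-KO (-1.73 ± 0.38, FDR 0.00412). Aldh3b2 and Aldh3b3 were at 0.143 CPM or less in the mice numbered 1 of cont. and Atg7-KO;p62T352A, and at 0.783 to 7.47 in the other mice of these genotypes.

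**Figure D4:**
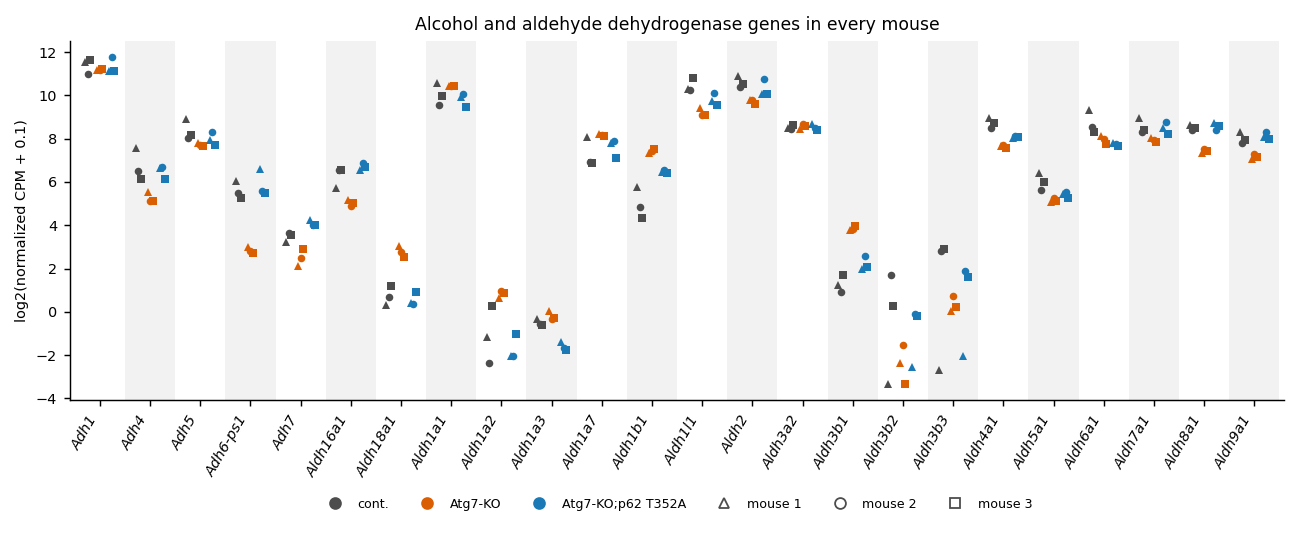
Level of each tested alcohol and aldehyde dehydrogenase gene as log2(normalized CPM + 0.1), 1 point per mouse, colours by genotype, shapes by mouse number. Atg7-KO points are highest for Aldh1b1, Aldh3b1 and Aldh18a1 and lowest for Adh6-ps1, Aldh8a1 and Aldh16a1, and Adh1 points overlap between 2006 and 3487 CPM.

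A list of 22 other genes of retinol and alcohol oxidation had 20 tested, of which 5 rose and 8 fell in Atg7-KO against cont. liver (median -0.40). The share called was 65.0%, against 43.7% of all tested genes. Cyp2e1, the ethanol-oxidizing cytochrome P450, had the largest called fall, at 7047, 6309 and 9234 CPM in cont. mice, 799, 766 and 689 in Atg7-KO mice and 2859, 5438 and 3222 in Atg7-KO;p62T352A mice (-3.33 ± 0.31, FDR 6.4e-05). Dhrs9, a retinol dehydrogenase, had the largest called rise, at 3.55, 1.23 and 0.879 CPM in cont. mice, 11.9, 12.1 and 11.4 in Atg7-KO mice and 0.785, 1.12 and 1.17 in Atg7-KO;p62T352A mice (2.56 ± 0.42, FDR 0.00123).

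The letters TGACNNNGC, the core of the antioxidant response element that NRF2 binds, were searched on both strands from 250 bases before to 50 after each RefSeq start. They occur in 12.4% of 32851 promoters, and in 3 of the 49 member genes with a promoter in the table: Adh6a (not tested), Aldh1a2 (higher in Atg7-KO) and Aldh9a1 (lower). The matches of the 2 tested genes are printed with 10 bases on each side, the match in capitals (GRCm38.p6, plus strand, chr9:71215667-71215695 and chr1:167349894-167349922). Aldh1a2 was at most 1.85 CPM, and its call was lost in 5 of the 9 fits that left out 1 mouse. A relation of the letters to the direction of change was not tested. A match is a sequence only, and binding was not measured here.
Aldh1a2: gccgcggactTGACCGTGCgggcgccgcg
Aldh9a1: ttaattatgcTGACTAGGCccaagctact

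Sulfotransferase genes held the largest fold changes of the 4 families. Their median between Atg7-KO and cont. liver was -2.03, and -0.08 without cont. mouse 3, where the filter passed 56 members of the 4 families. With all mice, of 16 tested, 2 were higher and 5 lower in Atg7-KO than in cont. liver. The share called, 43.8%, was close to that of all tested genes (43.7%). Between Atg7-KO;p62T352A and Atg7-KO 6 were higher and 2 lower (50.0% called, against 51.0% of all tested genes). By edgeR 0 were called between Atg7-KO;p62T352A and cont. liver, against 11.6% of all tested genes. In that comparison 3 had an unadjusted p under 0.05, and DESeq2 called 1, Sult1b1.

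Sult2a8 (chromosome 7, 14410686 to 14446769), which encodes a bile acid sulfotransferase of mouse liver, was at 1286, 646 and 495 CPM in cont. mice, 19.3, 30.8 and 10.3 in Atg7-KO mice and 848, 499 and 540.4 in Atg7-KO;p62T352A mice. The Atg7-KO mice lay far below all others, with changes of -5.33 ± 0.54 (FDR 9.3e-05) and 4.96 ± 0.53 (FDR 1.2e-04). Per length it made up 67.0%, 37.0% and 14.7% of the summed family level in cont. mice 1, 2 and 3 (mean 39.6%, and 25.8% without mouse 1), between 1.31% and 3.28% in Atg7-KO mice and between 22.2% and 47.2% in Atg7-KO;p62T352A mice. Sult5a1 (chromosome 8, 123140192 to 123158315) was at 12.8, 76.2 and 42.1 CPM in cont. mice, 0.677, 1.97 and 0.939 in Atg7-KO mice and 55.4, 79.9 and 144 in Atg7-KO;p62T352A mice. Its changes were -5.17 ± 0.73 (FDR 5.1e-04) and 6.26 ± 0.76 (FDR 2.1e-04), and again no Atg7-KO mouse overlapped the other groups. Both changes of both genes were called in every fit without 1 mouse.

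In the Sult1 subfamily 1 of 5 tested genes was lower and 1 higher in Atg7-KO than in cont. liver (40.0% called, against 43.7% of all tested genes). Sult1b1, a thyroid hormone sulfotransferase, was at 40.9, 22.3 and 31.8 CPM in cont. mice, 11.6, 11.7 and 9.86 in Atg7-KO mice and 17.7, 23.3 and 16.1 in Atg7-KO;p62T352A mice, with changes of -1.52 ± 0.24 (FDR 0.00101) and 0.78 ± 0.24 (FDR 0.0202). Sult1a1, the main phenol sulfotransferase, was at 295, 464 and 792 CPM in cont. mice, 299, 323 and 313 in Atg7-KO mice and 469, 771 and 631 in Atg7-KO;p62T352A mice. It was not called in Atg7-KO against cont. (-0.73 ± 0.33, FDR 0.0989) and was higher in Atg7-KO;p62T352A than in Atg7-KO (1.00 ± 0.34, FDR 0.0295). The calls between the Cre genotypes were lost without any Atg7-KO mouse or Atg7-KO;p62T352A mouse 2 for both genes, and without Atg7-KO;p62T352A mouse 3 for Sult1a1 (highest FDR 0.0784 and 0.0939). Sult1d1, which acts on catecholamines, held 134 to 338 CPM and Sult1c2 2.21 to 6.81 CPM over all mice, with no call.

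Sult1e1, the oestrogen sulfotransferase, was at 0.0573, 1.32 and 1.32 CPM in cont. mice, 7.40, 11.5 and 7.85 in Atg7-KO mice and 1.71, 0.771 and 23.1 in Atg7-KO;p62T352A mice. All Atg7-KO mice lay above all cont. mice (3.45 ± 1.25, FDR 0.0463), while Atg7-KO;p62T352A mouse 3 exceeded every other mouse and mice 1 and 2 of that genotype lay near the cont. mice, and no other comparison was called. The call was lost without any 1 of the 6 cont. and Atg7-KO mice (highest FDR 0.102). Sult2b1, a cholesterol and pregnenolone sulfotransferase, had no count in any cont. mouse and 17, 21 and 25 counts in the Atg7-KO mice, at least 3.50-fold higher against a floor of 3 counts per cont. library (FDR 0.00124). In Atg7-KO;p62T352A mice it had 3, 1 and 5 counts, lower than in Atg7-KO (-2.12 ± 0.52, FDR 0.0106).

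The hydroxysteroid sulfotransferase genes Sult2a1 to Sult2a6, known to be female-predominant in mouse liver, were lowest, or level with the lowest, in the mice numbered 1 of each genotype. Their summed level was 0, 42.2 and 514 CPM in cont. mice 1, 2 and 3, 1.06, 76.3 and 48.1 in the Atg7-KO mice and 0, 20.5 and 156 in the Atg7-KO;p62T352A mice. Mice numbered 1, the 3 with almost no Xist count, had no count of these 6 genes in cont. and Atg7-KO;p62T352A liver. Cont. mouse 2, which held reads of Y-linked genes, was below cont. mouse 3. None of the 6 was called in Atg7-KO against cont. liver, at standard errors of 1.45 to 2.04 on the log2 scale. Sult2a3 was called lower in Atg7-KO;p62T352A than in Atg7-KO (-5.67 ± 1.91, FDR 0.0302) from 0, 0 and 1.43 CPM in cont. mice, 0, 4.48 and 3.63 in Atg7-KO mice and 0, 0.0700 and 0.0653 in Atg7-KO;p62T352A mice, with mice at 0 in both groups. Up to 47.2% of the 75-base stretches of a gene of this group (Sult2a2) occur in other genes, and 25.9% in Sult2a1, so reads may be split between genes. Sult2a7, under 1 CPM in all mice, was lower in Atg7-KO (-2.26 ± 0.55, FDR 0.00858) and higher in Atg7-KO;p62T352A than in Atg7-KO (1.58 ± 0.57, FDR 0.0401).

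Sult3a1, an amine sulfotransferase that is also female-predominant, was at 0, 42.6 and 84.5 CPM in cont. mice, 0.580, 0.863 and 0.427 in Atg7-KO mice and 0, 57.4 and 31.6 in Atg7-KO;p62T352A mice. In mice 2 and 3 the Atg7-KO level lay below the rest, while mice numbered 1 of the other genotypes were at 0, so the groups overlapped at called changes of -6.06 ± 2.02 (FDR 0.0333) and 5.55 ± 1.98 (FDR 0.0381). Each call was lost in 6 of the 9 fits that left out 1 mouse (highest FDR 0.105 and 0.112). Sult2a3 in turn lost its call in 5 (highest FDR 0.0922) and Sult2a7 in 6 (0.157), both between the Cre genotypes.

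When mouse 1 of each genotype was dropped, 39 members were called between Atg7-KO and cont. liver (11 higher, 28 lower), 30 of them among the 36 called with all mice. Of all genes 54.4% were called in that fit, 27.1% higher and 27.3% lower. Adh5, Aldh1a2, Aldh6a1, Aldh7a1, Ces4a and Sult1e1 were no longer called, and Sult2a3, Sult2a4, Sult2a5, Sult2a6, Sult1a1, Aldh1a7, Aldh3b2, Aldh3b3 and Ces2e were called in addition. Between the Cre genotypes 36 were called (24 higher, 12 lower), which included all 30 called with all mice, where 53.9% of all genes were called, 26.3% higher and 27.6% lower.

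**Figure D5:**
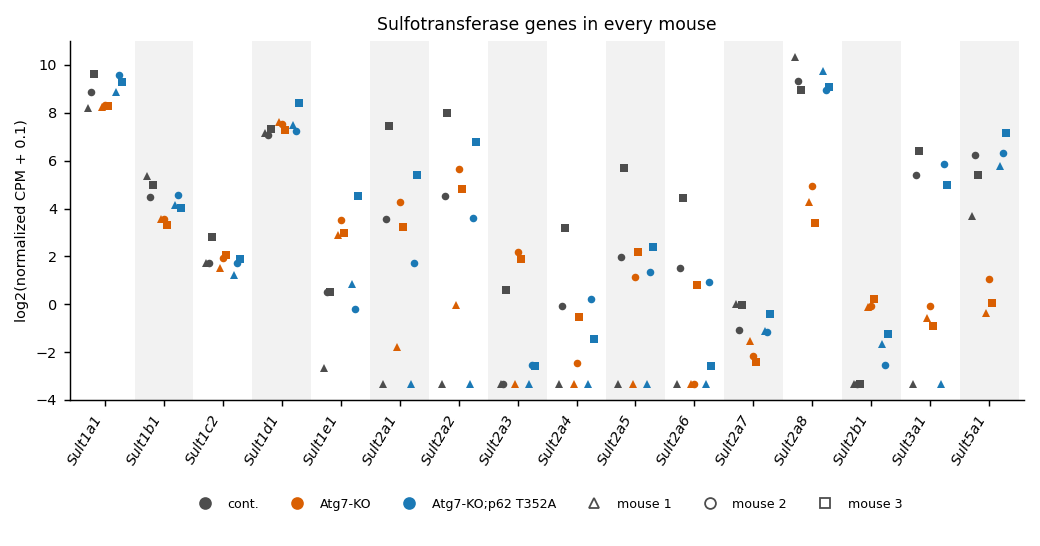
Level of each tested sulfotransferase gene as log2(normalized CPM + 0.1), 1 point per mouse, colours by genotype, shapes by mouse number; points at the bottom edge are mice with no count. Orange Atg7-KO points lie lowest for Sult2a8 and Sult5a1, and triangles (mice 1) lie lowest, or level with the lowest of their colour, for Sult2a1 to Sult2a6.

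A list of 11 genes that make, carry or recycle sulfate and its donor was tested beside the sulfotransferases. In Atg7-KO against cont. liver 1 was called higher and 2 lower (27.3% called, against 43.7% of all tested genes), with a median of -0.07. Suox, sulfite oxidase, had the largest called fall, at 172, 82.0 and 97.3 CPM in cont. mice, 44.6, 46.4 and 36.7 in Atg7-KO mice and 54.8, 110.3 and 68.7 in Atg7-KO;p62T352A mice (-1.46 ± 0.33, FDR 0.00591). Papss2, which makes PAPS, was the other, at 197, 254 and 413 CPM in cont. mice, 109, 138 and 123 in Atg7-KO mice and 214, 261 and 347 in Atg7-KO;p62T352A mice (-1.22 ± 0.29, FDR 0.00777). Slc26a2, a sulfate transporter, was the one that rose, at 2.58, 1.04 and 1.32 CPM in cont. mice, 4.06, 4.36 and 3.07 in Atg7-KO mice and 1.36, 1.40 and 0.914 in Atg7-KO;p62T352A mice (1.17 ± 0.36, FDR 0.0237).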

How the data were processed

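The authors sequenced poly(A) RNA of whole liver (single-end reads of 75 bases) and deposited 1 table of expected counts from RSEM, made with Trim Galore, STAR and the mm10 genome according to the submitters' processing notes. Tool versions, annotation and strand setting are not given in the sources used here. Expected counts were rounded to whole numbers. Each of the 9 columns was assigned by genotype and mouse number in the labels. Labels do not say how mice were bred or collected. The p-values use a spread per gene that is pooled over the 9 mice of all 3 genotypes. A mouse therefore also bears on the comparison that its genotype is not part of. Between Atg7-KO;p62T352A and cont. 11.6% of all genes were called, and 5.31% to 5.52% when 1 Atg7-KO mouse was left out.

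In R 4.3.3, genes were filtered with edgeR 4.0.16 (filterByExpr), scaled by TMM and fitted in 1 quasi-likelihood model over the 3 genotypes, with standard errors derived from the F statistic. DESeq2 1.42.0, other scalings, filters, a mouse-number block and left-out mice were alternatives. On simulated counts for Atg7-KO against cont. (13699 genes, dispersion 0.08), 96% of 200 genes changed 4-fold were called. Of 13503 unchanged genes 7 were called. The simulation had 1 dispersion for all genes and no effect of mouse number, so it gives no recovery rate for the members. Shared stretches are the share of the 75-base words of all annotated transcripts of a gene that occur in transcripts of another gene, on either strand. Levels per length are CPM per kb of a gene's longest transcript. The members and the gene lists were chosen with earlier results of these data known. Values of each mouse are given for members called in at least 1 comparison with a mean of at least 10 CPM in 1 genotype, at most 10 per family, and other members by ranges and counts. Adh1, Aldh1a1, Aldh1a7, Aldh7a1, Ces1c, Ces2g, Sult1e1, Sult2a3 and Sult2b1 were given in full after their values were seen. Promoters of 15 members are not in the RefSeq table used: Adh6-ps1, Aldh1a3, Aldh1l2, Aldh2, Aldh3a1, Aldh3b2, Aldh7a1, Ces1d, Ces1f, Ces2b, Ces3a, Sult2a1, Sult2a2, Sult2a7 and Sult4a1. Figures were drawn with matplotlib 3.10.9.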

Additional observations from a re-analysis of the deposited data

How the results depend on the processing

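No member called with all mice changed direction under any alternative. Between Atg7-KO and cont. liver 26 of the 36 calls, and between the Cre genotypes 22 of 30, were kept in each of the 9 fits that left out 1 mouse. In those 9 fits the counts of higher and lower members ranged from 7 to 11 and from 19 to 28 in the first comparison, and from 13 to 20 and from 9 to 13 in the second. They ranged from 0 to 3 and from 0 to 5 in the third, between Atg7-KO;p62T352A and cont., where none of the 5 calls was kept in every such fit and 0 were made without Atg7-KO;p62T352A mouse 3, a fit that called 3.07% of all genes. Of all genes these 9 fits called 32.5% to 56.0% in the first comparison and 40.0% to 57.3% in the second. In the third they called 3.07% to 22.8%. Without the mice numbered 1 the counts were 11 and 28, 24 and 12, and 1 and 4, where 54.4%, 53.9% and 21.2% of all genes were called.

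In the third comparison (1 higher and 4 lower, where 11.6% of all genes were called) DESeq2 called 2 higher and 10 lower (11.6% of all genes). With at least 10 counts required in every mouse of a genotype 3 were higher (12.0%), and with the 20 most abundant genes left out of library sizes 2 were higher and 4 lower (11.6%). Without the filter 2 were lower (7.26%). The causes were not tested. Every pair of mice numbered 1 (r = 0.14 to 0.27) and 3 (0.18 to 0.32) had a correlation over 0.1, but no pair numbered 2 did (-0.20 to 0.09), so the numbers were not taken as pairs although those numbered 1 and 3 deviated together. Mice of unlike number ranged from -0.34 to 0.18, the highest being cont. mouse 2 with Atg7-KO;p62T352A mouse 3. That value lay above the lowest pair numbered 1. With the replicate block 2 were lower in the third comparison (7.10% of all genes called), where Aldh4a1 and Ces1e were not called, and 37 and 28 members were called in the others, without Adh5 and Aldh7a1 in the first and Aldh1l1, Sult2a7 and Sult3a1 in the second.

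The log2 ratio of the summed Ces level between Atg7-KO and cont. (-0.95) ranged from -1.08 to -0.68 with 1 mouse left out and was -0.65 without the mice numbered 1. Between Atg7-KO;p62T352A and cont. (-0.17) the values were -0.30 to 0.10 and 0.14. Upper-quartile scaling moved the median of all genes by over 0.1, to 0.08 between Atg7-KO and cont. and to -0.13 between the Cre genotypes, where 15 members were then higher and 12 lower. The medians of the 4 families between Atg7-KO and cont. stayed below 0 under every alternative. The Aldh median between the Cre genotypes was 0.29, and -0.06 without the filter. That fit tested 63 members of the 4 families rather than 54, so the medians cover different genes. With 3 mice per genotype, members under 1 CPM and genes that follow the mouse number carry the least precision.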
